A study of Arabidopsis thaliana with 16 samples.

Results

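Total mRNA was compared between seedlings of Arabidopsis thaliana kept in the cold and untreated seedlings, using the 3 cold and 3 control mRNA libraries, 6 of the 16 samples of a study on N6-methyladenosine (m6A), a mark of mRNA, in the cold response. The libraries were chosen by their labels alone. The other 10 samples were m6A peak lists and libraries of polysomal RNA, which is RNA bound to several ribosomes. All samples were whole seedlings of the ecotype Col-0, 20 days old, grown on agar plates at 22 °C with 12 h of light per day. The cold group was held at 4 °C for 24 h and the control group was left untreated. The labels name no mutant, transgene or chemical in either group. The mRNA libraries are the input of the m6A experiment, poly(A) RNA broken to about 100 nt. Whether replicates were separate cultures is not given in the labels; p-values therefore reflect how much these libraries varied, which may be technical.

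Arabidopsis survives freezing better after some time at low, non-freezing temperature, a process called cold acclimation. It is best known for the COR (cold-regulated) genes and for changes of the circadian clock. Low temperature also slows enzymes, translation, membrane traffic and growth, and RNA folds more tightly in the cold. The description below leaves the COR and clock genes aside and follows other functions: RNA handling in organelles, protein import and turnover, the cytoskeleton, calcium, detoxification, nutrient and hormone pathways, and defence.

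Reads counted in genes numbered 10174359, 10368768 and 3282574 in cold libraries 1, 2 and 3 and 8428636, 10965304 and 10853054 in the controls. Cold replicate 3 stood apart: organelle genes held 22.1% of its counts but 6.28% to 8.70% in the other 5 libraries. Alignments that were not unique made up 82.2% of its whole tally, against 61.9% to 66.3%. Counts of list members are therefore also given without it. Control replicate 3 also differed from the other controls. Its log2 CPM correlated at 0.942 and 0.961 with control replicates 1 and 2, which correlated with each other at 0.978. For cold replicate 3 the values with cold replicates 1 and 2 were 0.946 and 0.949. Leaf markers were abundant in all 6 libraries (6 genes summing to 16888 to 24076 CPM in the cold, where CPM are read counts scaled to library size, and 19215 to 23810 in the controls). Of these 6 genes 0 rose and 3 fell, with a median log2 change of −0.57; 4 fell without cold replicate 3 (median −0.72), and 0 when control replicate 2 or either of the other cold libraries was left out. The part of this in the lists below was not tested. Root markers summed to 91.2 to 198 CPM in the cold and 49.6 to 112 CPM in the controls over 13 genes, with the highest sum in cold replicate 3. Of 8 seed storage and oil body markers none passed the filter on low counts, and 7 flower markers summed to at most 4.77 CPM in any library.

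Of 34262 features, 19261 genes had enough reads to be tested. A gene was said to rise or fall when its adjusted p was below 0.05 in edgeR's quasi-likelihood test with Benjamini-Hochberg adjustment over all 19261, which is the test behind every adjusted p given here. In the cold 2586 genes rose, 13.4% of those tested, and 2363 fell, 12.3%; the median log2 change was −0.01. These shares are the background for each list below. Without cold replicate 3, 2626 rose (13.4% of 19660) and 2218 fell (11.3%), and no gene that had risen or fallen turned its sign. Leaving out cold replicate 1, cold replicate 2 or control replicate 2 gave 1585, 1604 and 1424 genes higher in cold, total mRNA, and 1283, 1204 and 1148 genes lower in cold, total mRNA. With library totals as the scale instead of TMM factors, 1363 genes rose (7.08%) and 2870 fell (14.9%). The share of rises among the calls was then 32.2% in place of 52.3%, and among genes above a mean log2 CPM of 1 the median change moved from −0.01 to −0.17 on the log2 scale. Genes that rose with and without cold replicate 3 and whose groups did not overlap made up 11.5% of all tested, and such falls 9.72%. The lists described below were taken from 37 pathway lists and 49 families, which together hold 4665 tested genes. Of these 4665 genes 628 rose and 662 fell, so lists with many calls are a choice from a larger set. Most genes named below were chosen partly because their groups did not overlap, so that wording describes them and is not a further result. In bulk tissue, fewer cells of a type and less RNA per cell cannot be told apart, and this holds for every change below.

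**Figure D1:**
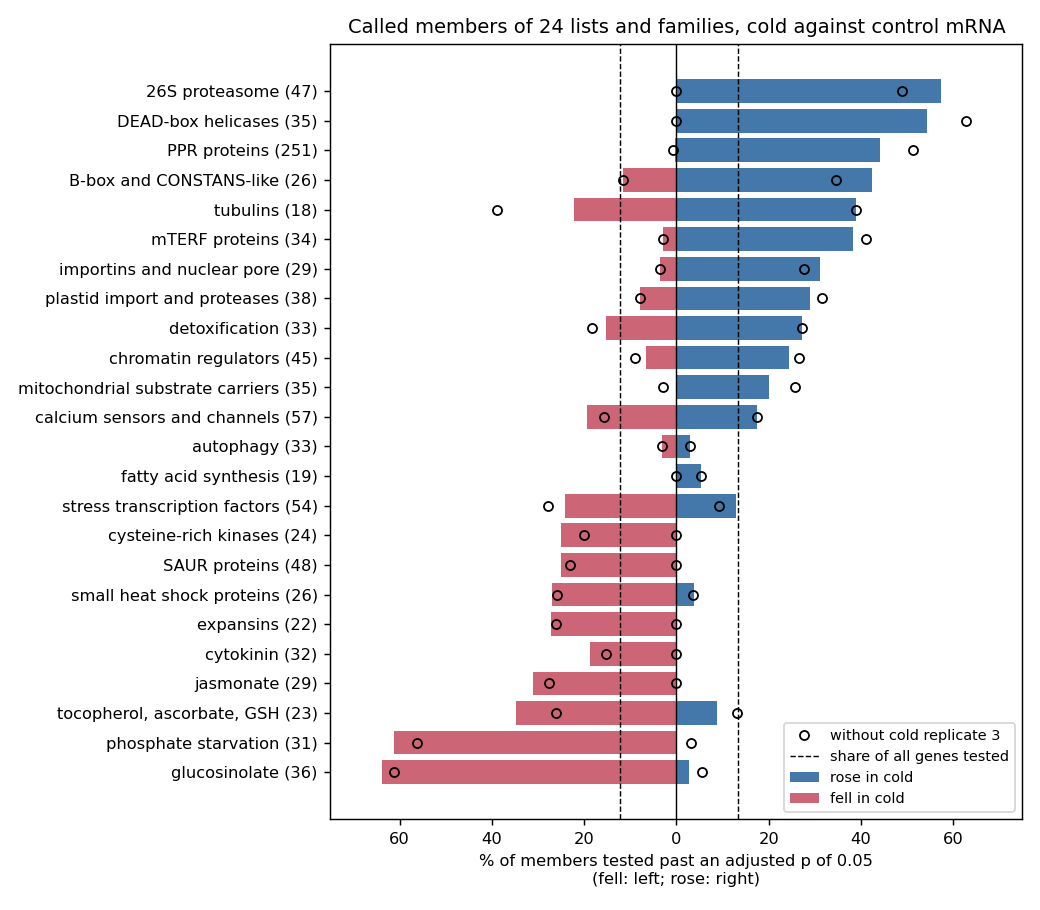
Share of tested members (in %, number tested in brackets) of 24 gene lists and families that rose (blue, right) or fell (red, left) in the cold mRNA libraries; open circles give the same shares without cold replicate 3, and dashed lines mark the 13.4% and 12.3% of all genes that rose and fell. The 24 are a choice from 37 pathway lists and 49 families. Among these 24, the 26S proteasome, DEAD-box helicases and PPR proteins reach the highest rising shares. The glucosinolate and phosphate-starvation lists reach the highest falling shares.

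Genes for RNA-binding proteins of plastids and mitochondria were higher in the cold. Pentatricopeptide repeat (PPR) proteins bind organelle transcripts and direct their editing, splicing and stability. Of 279 genes matched as PPR by product name 251 were tested, and 111 rose (44.2%, against 13.4% of all genes) while 1 fell. Their median log2 change was 0.76, with 201 of 251 above 0. Leaving out cold replicate 3, 129 rose and 2 fell with a median of 0.90. The count of rises was lowest without cold replicate 1, at 70, where 2 fell. With library totals 92 rose and 2 fell. The summed level of the tested PPR genes was 4643, 3864 and 3436 CPM in the cold and 2788, 2932 and 2679 CPM in the controls, so every cold library was above every control.

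AT1G32415, a PPR gene with no symbol, had 9.92, 7.68 and 7.18 CPM in the cold and 1.108, 1.05 and 0.933 CPM in the control libraries. The groups did not overlap, with a log2 change of 3.01 (SE 0.29, adjusted p = 0.000446; 3.08 without cold replicate 3). AT5G61370 had 20.4, 14.2 and 11 CPM against 2.44, 1.58 and 2.46 CPM, a log2 change of 2.84 (3.0 without cold replicate 3). In AT4G08210 the log2 change was 2.53, but at 0.339 to 0.614 CPM in the controls its call was lost without cold replicate 1. Some PPR genes of known function were picked after their values were seen. SVR7, needed for chloroplast gene expression, had 251, 191 and 178 CPM in the cold and 78.5, 63.4 and 48.9 CPM in the controls, with no overlap and a log2 change of 1.7 (SE 0.21). DOT4, a plastid RNA editing factor, rose by 2.27 and SLO2, a mitochondrial RNA editing factor, by 2.14 on the log2 scale. The single fall was AT3G59300, from 34.5, 50.9 and 33.4 to 16.5, 19.4 and 13.2 CPM (log2 change −1.25, −1.14 without cold replicate 3).

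The mTERF proteins, related to mitochondrial transcription termination factors, also act on organelle nucleic acids. Of 37 mTERF genes 34 were tested, 13 rose (38.2%) and 1 fell, and the median log2 change was 0.65. With cold replicate 3 left out the counts were 14 and 1, with a median of 0.68; the count of rises was 7 when either cold replicate 1 or control replicate 2 was omitted. EMB2219, a gene needed for embryo development, had 18.5, 13 and 21.5 CPM in the cold and 7.09, 5.09 and 3.81 CPM in the controls (log2 change 1.71, SE 0.28; 1.57 without cold replicate 3). AT5G07900 rose by 1.28 and EMB93 by 1.15 on the log2 scale. BSM, which acts in the splicing of chloroplast introns and was picked after its values were seen, rose from 63.6, 68.9 and 60.2 to 165, 127 and 129.6 CPM, with no overlap. AT2G34620 went the other way, at 8.17, 10.2 and 21.9 CPM against 43.2, 74.2 and 34.8 CPM (log2 change −2.03), and was no longer called without cold replicate 1 or cold replicate 2, which left 0 falls.

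DEAD-box helicases unwind or remodel RNA duplexes. Of 41 genes 35 were tested, 19 rose (54.3%) and 0 fell, with 31 of 35 above 0 and a median log2 change of 0.64. In the fit that omits cold replicate 3, 22 rose and the median was 0.81; leaving out any other single library gave at least 14 rises. AT1G51380 had 15.2, 12.1 and 9.45 CPM in the cold and 4.43, 2.89 and 3.05 CPM in the controls, a log2 change of 1.86 (SE 0.27, adjusted p = 0.00239). ABO6, a mitochondrial helicase involved in splicing, had 43, 37.1 and 30.2 CPM against 9.64, 11.7 and 11.4 CPM (log2 change 1.76; 1.87 without cold replicate 3). EMB3108 rose by 1.58. The cold and control libraries of these 3 genes did not overlap. The chloroplast helicase gene emb1138, picked after its values were seen, had 1325, 1152 and 1237 CPM in the cold and 741, 715 and 664 CPM in the controls, a smaller log2 change of 0.81 (SE 0.14).

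The polysome libraries, which the tests above did not use, were read beside these families. Whether polysome and mRNA libraries came from the same plants is not given in the labels. Genes held 92.8% to 93.8% of the whole tally in the polysome libraries, against 6.6% to 31.2% in the mRNA libraries. A difference between the 2 kinds of library is therefore not a measure of translation within 1 sample. Among 17820 tested genes with a mean of at least 1 CPM in polysomes, both cold polysome libraries lay above both controls in 30.8% and below both in 30.9%, so this is the background for 2 libraries a group. Of 247 PPR genes 132 were above and 26 below, of 33 mTERF genes 22 and 2, and of 35 DEAD-box genes 24 and 3. Library by library the PPR sum was 4289 and 3409 CPM in cold polysomes and 3427 and 3075 CPM in control polysomes, so the second cold library was below the first control library.

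Genes for transport of proteins into plastids and nuclei and of metabolites into mitochondria also had more rises than falls. Among 38 genes for plastid import, chaperones and proteases 11 rose (28.9%) and 3 fell, with a median log2 change of 0.26; without cold replicate 3 the counts were 12 and 3. The rises numbered 6 without cold replicate 1, 4 without control replicate 2, and 4 with library totals. TOC64-III, a receptor-like protein of the outer envelope, had 122, 105 and 86.5 CPM in the cold and 43.3, 35.7 and 38.2 CPM in the controls (log2 change 1.42, SE 0.17; 1.53 without cold replicate 3). TOC75-III, the import channel, rose by 0.88 and TOC132, a receptor GTPase, by 0.83 on the log2 scale. The falls were thylakoid proteases and a chaperonin: FTSH8 at 194, 217 and 154 CPM against 386, 359.9 and 341 CPM (log2 change −0.94), FTSH1 at −0.77 and Cpn60beta2 at −0.66. The groups did not overlap in FTSH8. In polysomes both cold libraries were above both controls in 10 of 37 genes of the list and below in 8, against 30.8% and 30.9% of all genes, and the median polysome log2 ratio was −0.01. Cpn60beta2 lost its call without cold replicate 2, control replicate 1 or control replicate 2.

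Importins carry proteins through nuclear pores. Of 34 importin and nuclear pore genes 29 were tested, 9 rose (31%) and 1 fell, with a median log2 change of 0.41; without cold replicate 3, 8 rose and 1 fell. When cold replicate 1, cold replicate 2 or control replicate 2 was omitted, 4 rose in each case, and with library totals 2 rose. AT1G24310 had 47, 40.7 and 41.9 CPM in the cold and 23.9, 21 and 20.4 CPM in the controls, with no overlap (log2 change 0.99, SE 0.15). NUP155, a scaffold protein of the pore, rose by 0.76. The single fall, AT1G59660 at −0.87, was lost when any library other than cold replicate 3 was left out. Both cold polysome libraries were above both controls in 20 of 29 of these genes and below in 1. Over all genes these shares were 30.8% and 30.9%.

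Of 37 genes for mitochondrial substrate carriers 35 were tested, 7 rose (20%) and 0 fell. Without cold replicate 3, 9 rose and 1 fell, and library totals gave 3 rises and 1 fall. The rises were 3 without cold replicate 1, control replicate 1 or control replicate 2, 4 without cold replicate 2, and 1 fell without control replicate 3. AT5G15640 had 44.5, 41 and 31.7 CPM in the cold and 16.1, 15.2 and 12.7 CPM in the controls, a log2 change of 1.43 (1.55 without cold replicate 3). AT3G51870 rose by 1.43 and SAMTL, an S-adenosylmethionine transporter-like gene, by 1.03 on the log2 scale. In polysomes 27 of 35 carriers were above the controls in both cold libraries and 1 was below, against 30.8% and 30.9% of all genes.

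**Figure D2:**
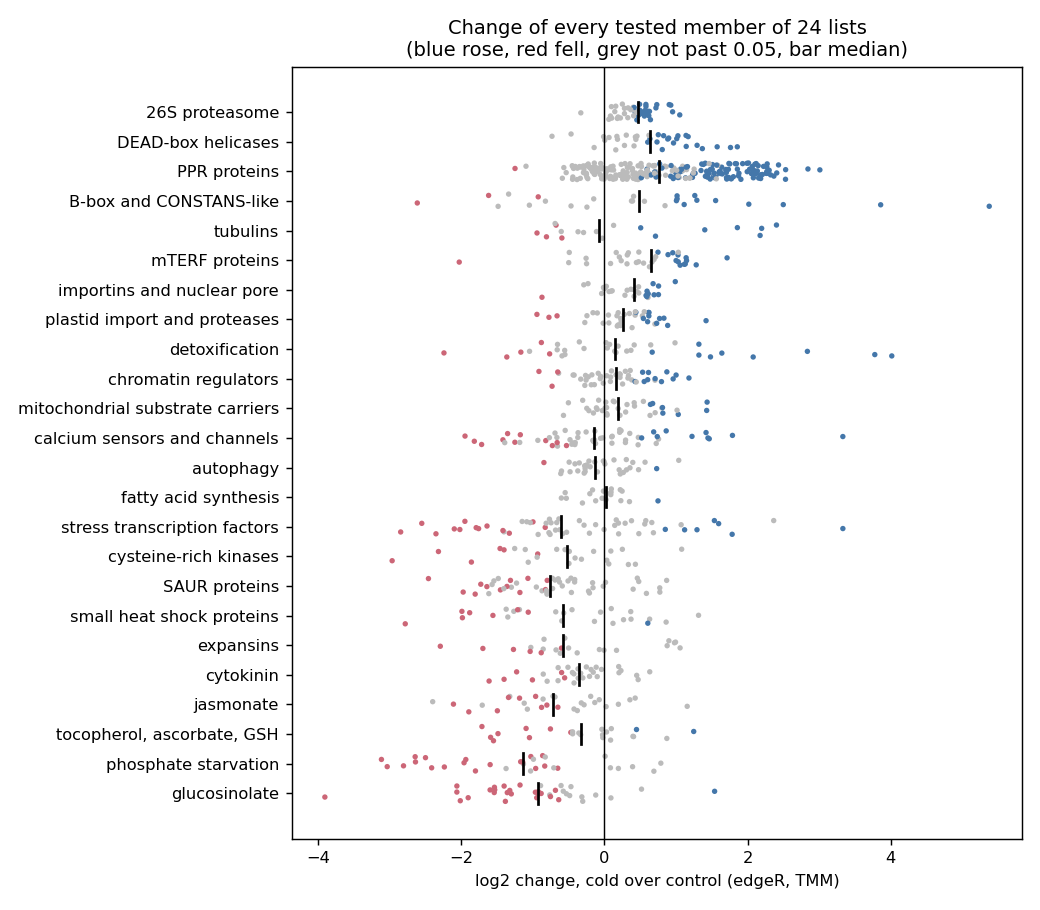
Log2 change in cold over control mRNA (x axis, edgeR with TMM factors) for every tested member of 24 lists, 1 point per gene, coloured by call, with the median of each list as a black bar. Proteasome genes form a narrow group around a median of 0.46, PPR genes spread from below 0 to a log2 change of 3.01, and the B-box and calcium lists hold members far to both sides.

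The 26S proteasome degrades proteins tagged with ubiquitin; its core particle cuts them and its regulatory particle unfolds and feeds them in. All 47 genes of the list were tested, 27 rose (57.4%) and 0 fell. The changes were small and alike: 46 of 47 were above 0, with a median log2 change of 0.46 (also 0.46 without cold replicate 3, where 23 rose). The summed level was 4141, 4422 and 4494 CPM in the cold and 3159, 3100 and 3036 CPM in the controls, so every cold library was above every control. The number of rises depended on the libraries and the scale. It was 17 without cold replicate 1, 9 without cold replicate 2, 13 without control replicate 1, 6 without control replicate 2, and 5 with library totals, where the median was 0.30 with 0 falls. In polysomes all 47 had at least 1 CPM. Both cold libraries were above both controls in 39 and below in 0, against 30.8% and 30.9% of all genes. The polysome sum was 4982 and 5142 CPM in the cold and 3578 and 4014 CPM in the controls.

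AT1G04810, a large subunit of the regulatory particle, had 89.4, 102 and 121 CPM in the cold and 50.2, 53.8 and 45.9 CPM in the controls, with no overlap and a log2 change of 1.05 (SE 0.16, adjusted p = 0.00255; 0.93 without cold replicate 3). PAD2, an alpha subunit of the core, rose by 0.95, from 27.2, 25.7 and 24.3 to 37.9, 48.2 and 65 CPM, with the highest value in cold replicate 3 and a log2 change of 0.74 without it. PAG1, another alpha subunit, rose by 0.93, or 0.62 without cold replicate 3, and was not called without control replicate 2. RPT2a, an ATPase subunit picked after its values were seen, had 221, 239 and 201 CPM against 104, 121 and 128 CPM (log2 change 0.91).

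Promoter windows, the 300 bases before the annotated start of each gene in RefSeq TAIR10.1, were searched on both strands for 10 motifs. The 2 described here were chosen after the shares were seen. The letters TGGGCC, a form of the site II element known from promoters of plant housekeeping genes, were present in 17.6% of 18811 windows of all tested genes. They were present in 17 of 47 proteasome windows (36.2%), 13 of 35 DEAD-box windows (37.1%), 16 of 38 plastid import windows (42.1%) and 58 of 251 PPR windows (23.1%). The share was not particular to lists with many rises: it was 15 of 38 for histones (39.5%), of which 2 rose and 5 fell, 8 of 27 for kinesins (29.6%), of which 2 rose and 3 fell, and 7 of 25 for sterol and isoprenoid synthesis (28%), of which 1 rose and 3 fell. A match describes the letters only and does not show a site that is bound. The 3 windows below belong to proteasome genes described above and each hold 2 matches, in capitals and read from the gene's own strand, where GGCCCA is the same motif on the opposite strand. In AT1G04810 the matches begin 115 and 71 bases before the annotated start, in PAD2 125 and 94, and in RPT2a 61 and 42. The windows lie at chr1:1349780-1350079 (plus strand, AT1G04810), chr5:26438772-26439071 (minus strand, PAD2) and chr4:14311983-14312282 (plus strand, RPT2a).
AT1G04810: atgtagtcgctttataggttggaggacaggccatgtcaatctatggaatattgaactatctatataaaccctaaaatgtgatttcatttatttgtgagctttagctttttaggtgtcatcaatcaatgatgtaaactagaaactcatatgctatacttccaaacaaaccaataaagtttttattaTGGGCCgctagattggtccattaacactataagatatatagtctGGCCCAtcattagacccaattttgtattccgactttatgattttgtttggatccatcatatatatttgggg
PAD2: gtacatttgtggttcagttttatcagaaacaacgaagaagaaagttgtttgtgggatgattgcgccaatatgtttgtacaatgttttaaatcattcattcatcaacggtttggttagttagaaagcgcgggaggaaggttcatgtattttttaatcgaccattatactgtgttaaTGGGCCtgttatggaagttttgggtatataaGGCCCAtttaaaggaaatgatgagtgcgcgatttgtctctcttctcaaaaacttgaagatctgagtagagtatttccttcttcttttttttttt
RPT2a: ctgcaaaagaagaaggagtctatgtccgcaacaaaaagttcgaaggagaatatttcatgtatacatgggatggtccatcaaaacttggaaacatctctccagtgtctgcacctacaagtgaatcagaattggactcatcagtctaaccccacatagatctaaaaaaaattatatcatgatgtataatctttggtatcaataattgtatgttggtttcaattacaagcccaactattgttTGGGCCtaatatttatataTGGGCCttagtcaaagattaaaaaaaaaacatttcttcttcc

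B-box zinc finger proteins, among them the CONSTANS-like proteins, are transcription factors of light and flowering-time responses. Of 28 genes 26 were tested, 11 rose (42.3%) and 3 fell (11.5%), with a median log2 change of 0.48. Leaving out cold replicate 3, 9 rose and 3 fell, of which 2 fell in both fits; without control replicate 1, 5 fell. COL9, a CONSTANS-like gene known to delay flowering, had 79.2, 72.1 and 63.9 CPM in the cold and 2.11, 2.02 and 1.1 CPM in the controls. Its log2 change was 5.37 (SE 0.25, adjusted p = 1.64e-05; 5.45 without cold replicate 3), with every cold library far above every control. CO, the photoperiod gene CONSTANS itself, had 4.67, 4.32 and 5.29 CPM against 0.333, 0.263 and 0.339 CPM, a log2 change of 3.86 (SE 0.37). BZS1, a B-box gene of light and brassinosteroid signalling, rose by 2.5 on the log2 scale, from 3.55, 2.37 and 0.678 to 9.92, 16 and 10.2 CPM. The other rises had log2 changes between 1.01 (BBX28) and 2.02 (BBX29), both picked after their values were seen. BBX16 fell from 61.8, 99.6 and 119 to 23.1, 32.2 and 37.4 CPM (log2 change −1.62) and COL3, a light-signalling gene, changed by −0.92. The third fall, BBX32 at −2.61, had controls between 5.21 and 25.3 CPM, was not called without cold replicate 3 (adjusted p = 0.081) and was picked after its values were seen. In polysomes COL9 had 102 and 114 CPM in the cold and 31 and 1.82 CPM in the controls, so the control libraries themselves lay far apart. The hour of harvest is not among the sample details used here, and its part in these changes was not tested.

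Tubulins, the subunits of microtubules, changed in opposite directions within the family. Of 18 genes tested, which include a pair of plastid-division FTSZ genes, 7 rose (38.9%) and 4 fell (22.2%), and the median log2 change was −0.07. The rises include FTSZ2-1 (log2 change 0.71) and the falls AT1G50020 (−0.67), which has no TUA or TUB symbol. TUB5, a beta-tubulin, had 269, 282 and 358 CPM in the cold and 61.2, 55.8 and 54.8 CPM in the controls, a log2 change of 2.4 (SE 0.16, adjusted p = 8.21e-05; 2.27 without cold replicate 3). TUB9 had 271, 344 and 229.7 CPM against 67.4, 64.9 and 52.1 CPM (log2 change 2.2), and the alpha-tubulin TUA5 had 287, 357 and 315 CPM against 84.2, 65.9 and 62.4 CPM (2.17). In all 3 the lowest cold library was above 3 times the highest control. TUA3 rose by 1.86 and TUB4 by 1.4 on the log2 scale, both picked after their values were seen. TUB8, also a beta-tubulin, fell from 60.3, 45.8 and 43.2 to 25.9, 26.1 and 25.7 CPM (log2 change −0.94, SE 0.17), and TUB3 fell from 204, 197 and 168 to 87.8, 119.6 and 118 CPM (log2 change −0.81). The groups did not overlap in either gene.

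Reads that matched more than 1 place were given to no gene, so TUA3 and TUA5, TUA2, TUA4 and TUA6, and TUB2 and TUB3, which are near-identical copies, are uncertain. Over all genes of the family, FTSZ2-1 and AT1G50020 included, 7 fell without cold replicate 3 and 2 without cold replicate 1. With control replicate 2 left out 2 fell, and with library totals 6. The rises stayed between 5 and 7. The summed level was 2978, 3505 and 3382 CPM in the cold and 2333, 2261 and 2060 CPM in the controls, so the sum was higher although 10 genes had a log2 change below 0 and 8 above. In polysomes TUB5 had 257 and 299 CPM in the cold and 170.0 and 166 CPM in the controls, TUB9 had 321 and 388 against 99.1 and 79.5 CPM, and TUB3 had 71.7 and 70.4 against 194 and 228 CPM, each in the direction of total mRNA.

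**Figure D3:**
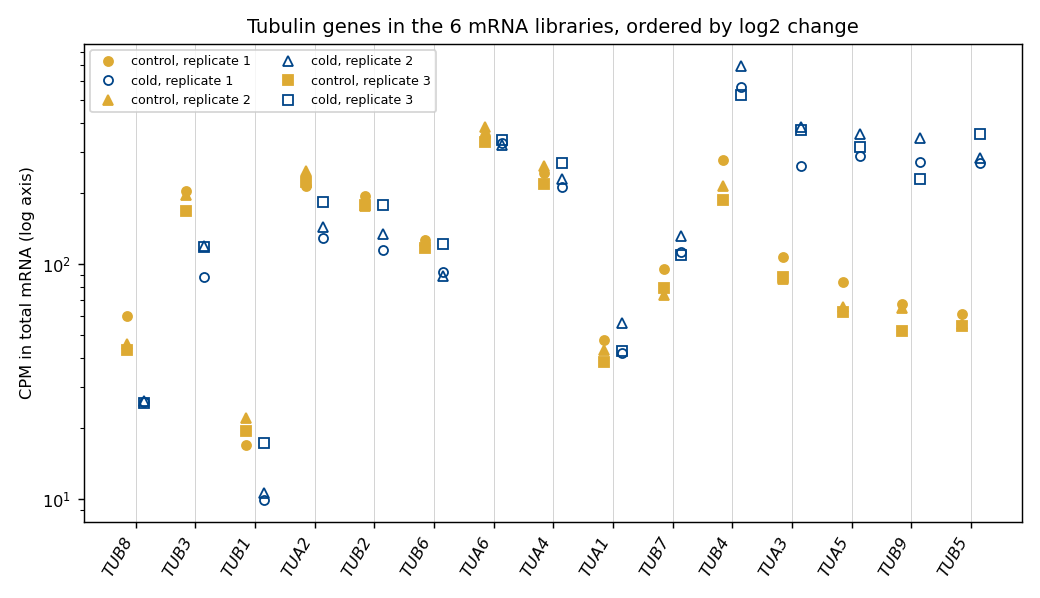
CPM on a log axis of the 15 tubulin genes with a TUA or TUB symbol in each of the 6 mRNA libraries (filled gold, controls; open blue, cold), ordered by log2 change. Cold points sit below controls in TUB8 and TUB3 at the left and above them from TUB4 to TUB5 at the right.

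Over the wider cytoskeleton list of 38 tested genes, tubulins included, 10 rose and 7 fell; without cold replicate 3, 9 rose and 10 fell. Library totals gave 6 rises and 12 falls. Without cold replicate 1 or cold replicate 2, 6 rose and 4 fell, and without control replicate 2, 4 fell. MAP65-2, a protein that bundles microtubules, fell from 19.2, 23.3 and 25.9 to 9.43, 9.02 and 11 CPM (log2 change −1.24; −1.31 without cold replicate 3). The vegetative actin gene ACT7 had 231, 238 and 231 CPM in the cold and 366, 349 and 369 CPM in the controls (log2 change −0.63), and ADF5, of the actin-depolymerising factor family, rose by 1.18. Both were picked after their values were seen, and in both the groups did not overlap.

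Calcium enters the cytosol when plants are cooled and is removed by pumps and exchangers. Of 57 tested genes for calcium sensors, channels and transporters 10 rose (17.5%) and 11 fell (19.3%). With cold replicate 3 left out the counts were 10 and 9. The rises were 6 without control replicate 2, and the falls were 7 when cold replicate 1, cold replicate 2 or control replicate 2 was omitted. ACA8, a calcium pump of the plasma membrane, had 270.1, 338 and 215 CPM in the cold and 28.5, 30.1 and 23.3 CPM in the controls, a log2 change of 3.33 (SE 0.21, adjusted p = 6.23e-05; 3.48 without cold replicate 3). Its groups were far apart. CIPK25, a kinase of calcium signalling, rose by 1.79. ACA4, a vacuolar pump, rose by 1.46 but was not called without cold replicate 2 or control replicate 2. CNGC4, a cyclic nucleotide-gated channel, fell from 52.6, 53.8 and 55.9 to 10.7, 13.6 and 19.3 CPM (log2 change −1.95). The vacuolar exchanger CAX3 changed by −1.82 and TCH2, a calmodulin-like protein, by −1.71. In polysomes CAX3 had 21.5 and 24.2 CPM in the cold and 9.91 and 21.3 CPM in the controls, not the order seen in total mRNA.

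Of 33 genes for detoxification and secondary metabolites 9 rose (27.3%) and 5 fell (15.2%). In the fit that omits cold replicate 3, 9 rose and 6 fell; 5 rose without control replicate 2, and 2 and 3 fell without cold replicates 1 and 2. With library totals 7 rose and 8 fell, and the median log2 change was −0.01 in place of 0.14. GSTU25, a glutathione S-transferase of the tau class, had 91.1, 81.7 and 99 CPM in the cold and 4.43, 8.42 and 6.78 CPM in the controls (log2 change 3.78, SE 0.24; 3.71 without cold replicate 3). UGT78D3, which adds arabinose to flavonols, had 17.4, 9.11 and 7.18 CPM against 0.333, 0.789 and 0.933 CPM (log2 change 4.01). Neither gene overlapped between groups. The efflux carrier DTX1 rose by 2.83 with a wide spread among cold libraries (31.8, 78.5 and 19.3 CPM) and lost its call without control replicate 2. ERD9, a glutathione S-transferase too, fell from 227, 209 and 168 to 109.9, 71 and 52.5 CPM. Other falls were GSTU10 at −2.24, not called without cold replicate 1 or cold replicate 2, and CYP81D8 at −1.17, not called without cold replicate 1 or control replicate 2.

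Among 27 genes of chlorophyll and heme synthesis 3 rose (11.1%) and 0 fell, with and without cold replicate 3; 1 fell without control replicate 1, and 2 with library totals. The rises were 6 with organelle genes removed and 7 with voom and quality weights, where more genes were called in all. PORB, a light-dependent protochlorophyllide reductase, had 399, 420.0 and 1026 CPM in the cold and 47.8, 34.5 and 78.8 CPM in the controls, a log2 change of 3.51 (SE 0.51, adjusted p = 0.00503). Cold replicate 3 was highest, and without it the change was 2.93. In polysomes PORB had 640.1 and 875 CPM in the cold and 861 and 820.2 CPM in the controls, with no such gap. The controls alone were far higher in polysomes than in total mRNA, and the cause was not tested. CHLI2, a subunit of magnesium chelatase, rose by 1.19 and HEMC, an early enzyme of the pathway, by 0.86.

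Of 11 genes of chlorophyll breakdown 2 rose and 2 fell, also without cold replicate 3. HCAR, which converts chlorophyll b derivatives toward chlorophyll a, rose from 7.76, 10.2 and 5.17 to 41.9, 41.9 and 37.4 CPM (log2 change 2.4, SE 0.24). The chlorophyllase gene CLH2 rose by 2.17 while CLH1, the other chlorophyllase, fell from 23.2, 53.4 and 51.6 to 15.1, 13 and 12.8 CPM (log2 change −1.64). The groups did not overlap in these 3 genes. PPH, which removes the phytol tail of pheophytin, changed by −0.64 and lost its call without control replicate 2.

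Polyamines are small cations made from arginine. Of 15 genes 2 rose (13.3%) and 4 fell (26.7%), the same counts without cold replicate 3. ADC1, arginine decarboxylase at the head of the pathway, had 689, 552 and 497 CPM in the cold and 184, 207 and 249 CPM in the controls (log2 change 1.44, SE 0.18; 1.54 without cold replicate 3). ACL5, a thermospermine synthase, had 66.7, 80.7 and 59.3 CPM against 22.4, 23.5 and 22 CPM (log2 change 1.61). Both were higher in every cold library. The polyamine oxidases PAO4 and PAO2 fell by 1.22 and 1.03 and the synthase gene SPDS3 fell by 1.32 on the log2 scale.

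The antioxidants tocopherol, ascorbate and glutathione have separate pathways of synthesis. Of their 23 genes 2 rose and 8 fell (34.8%, against 12.3% of all genes), with a median log2 change of −0.33; without cold replicate 3, 3 rose and 6 fell, and with library totals 1 rose. The falls were 4 without cold replicate 2 or control replicate 2. GME, which makes GDP-galactose for ascorbate, rose from 305, 274 and 267 to 722, 750.2 and 536 CPM (log2 change 1.25, SE 0.17). VTC5, a later ascorbate enzyme, went from 57.2, 70.8 and 45.2 to 21.3, 16.8 and 14 CPM (−1.71). VTE1, tocopherol cyclase, had 27.2, 28.4 and 26.1 CPM in the cold and 71.7, 89 and 85.5 CPM in the controls (log2 change −1.59; −1.56 without cold replicate 3), and DHAR2, which recycles ascorbate, changed by −1.48. The second rise, the glutathione synthetase gene GSH2 at 0.45, had an adjusted p of 0.0486 and was lost when any library other than cold replicate 3 was left out.

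Of 45 tested chromatin regulators 11 rose (24.4%) and 3 fell; without cold replicate 3, 12 rose and 4 fell. The rises were 4 without cold replicate 1 or cold replicate 2, 5 without control replicate 1, 3 without control replicate 2 and 3 with library totals, where 4 fell and the median log2 change was −0.01 in place of 0.16, and the falls were 1 without cold replicate 1 and 0 in the fit that omits control replicate 2. HDA3, a plant-type histone deacetylase, had 147, 122 and 90.3 CPM in the cold and 57.9, 51.7 and 49.6 CPM in the controls (log2 change 1.18, SE 0.19). HD1, a histone deacetylase of the RPD3 type, had 188, 175 and 209 CPM against 94.3, 91.2 and 99.5 CPM (1.0). CLF, a histone methyltransferase of the Polycomb group, rose by 0.96. The groups did not overlap in these 3.

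Genes of glucosinolate metabolism were lower in the cold. Glucosinolates are sulfur-rich defence compounds of the cabbage family, made from methionine or tryptophan. Of 39 genes 36 were tested, 1 rose and 23 fell (63.9%, against 12.3% of all genes), with 33 of 36 below 0 and a median log2 change of −0.92. Without cold replicate 3, 2 rose and 22 fell with a median of −0.82; without control replicate 2, 15 fell. The sum was 3767, 3306 and 2554 CPM in the cold and 5022, 5607 and 4997 CPM in the controls, with cold replicate 3 lowest and no overlap. TGG1 held 1168, 1244 and 561 CPM of the cold sums and 1242, 1187 and 806 CPM of the control sums. It did not pass (adjusted p = 0.804). FMO GS-OX2, which oxidises the side chain of methionine-derived glucosinolates, had 1.07, 1.44 and 0.378 CPM in the cold and 20.3, 19.3 and 11.3 CPM in the controls (log2 change −3.9, SE 0.37, adjusted p = 0.000464; −3.74 without cold replicate 3). MYB34, a regulator of tryptophan-derived glucosinolates, went from 40.2, 63.8 and 53.7 to 14.6, 13.9 and 7.93 CPM (−2.06). The other MYB genes of the list did not pass. MYB28, MYB29 and MYB51 had log2 changes of −0.31, −0.53 and −0.48 (adjusted p = 0.514, 0.554 and 0.359). SOT17, a sulfotransferase of the last core step, had 8.55, 4.89 and 11 CPM against 28.3, 35.2 and 33 CPM (−2.06). The rise was FMO GS-OX4, a gene of the same enzyme family as FMO GS-OX2, at 141, 135 and 88.8 CPM against 38.5, 39.1 and 48.4 CPM (log2 change 1.54, SE 0.20). In polysomes both cold libraries were below both controls in 21 of 36 genes and above in 1, against 30.9% and 30.8% of all genes. The polysome sums were 2832 and 5584 CPM in the cold and 3494 and 5797 CPM in the controls.

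Phosphate-starvation genes were also lower in the cold mRNA libraries. When phosphate is short, the transcription factor PHR1 switches on genes for phosphate uptake, phosphatases and lipids without phosphorus, and SPX proteins hold PHR1 back when phosphate is ample. Of 35 genes 31 were tested, 0 rose and 19 fell (61.3%), with 25 of 31 below 0 and a median log2 change of −1.13. Leaving out cold replicate 3, 1 rose and 18 fell with a median of −1.12; 1 also rose without control replicate 1. Among the regulators, SPX3 had 0.972, 1.73 and 4.91 CPM in the cold and 9.31, 15.9 and 26.2 CPM in the controls. Its groups did not overlap, each covered a wide range, and its log2 change was −3.11 (SE 0.61, adjusted p = 0.011; −3.66 without cold replicate 3); the call was lost without cold replicate 2. SPX1, picked after its values were seen, changed by −1.93, while PHR1 itself had a log2 change of 0.20 that did not pass (adjusted p = 0.417).

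Among the enzymes, PEPC1, a phosphatase, had 3.11, 6.81 and 14 CPM in the cold and 40.01, 53.3 and 78.9 CPM in the controls (log2 change −3.03). MGD2, which makes galactolipids that replace phospholipids, had 1.75, 3.26 and 2.27 CPM against 14.6, 16 and 21.1 CPM (log2 change −2.8, SE 0.29; −2.78 without cold replicate 3). SRG3, a glycerophosphodiester phosphodiesterase, had 15.9, 20.8 and 20.4 CPM against 66.7, 73.6 and 127 CPM (−2.23), and SQD2, which makes sulfolipid, had 56.1, 76.8 and 55.5 CPM against 167, 212 and 279.5 CPM (−1.8); both were picked after their values were seen. No cold library of these 4 reached a control. Control replicate 3 was the highest library in each of them, and summed over the 31 genes the controls had 1452, 1742 and 2688 CPM and the cold libraries 884, 861 and 917 CPM.

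The polysome libraries did not show this fall. Their sums over the 31 genes were 834 and 2310 CPM in cold replicates 1 and 2 and 784 and 1662 CPM in control replicates 1 and 2, and the median log2 ratio of cold to control was 0.39. Both cold libraries were below both controls in 1 gene and above in 3, against 30.9% and 30.8% of all genes. Within polysomes, replicate 2 was above replicate 1 in both conditions for 26 of 31 genes, by a median log2 ratio of 1.15 in the cold and 1.02 in the control. The spread between replicates was thus wider than the median log2 ratios of cold to control, 0.26 within replicate 1 and 0.38 within replicate 2. For SPX3 the polysome values were 2.23 and 36.1 CPM in the cold and 0.385 and 27.6 CPM in the control. What sets the level of these genes in each library was not tested.

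**Figure D4:**
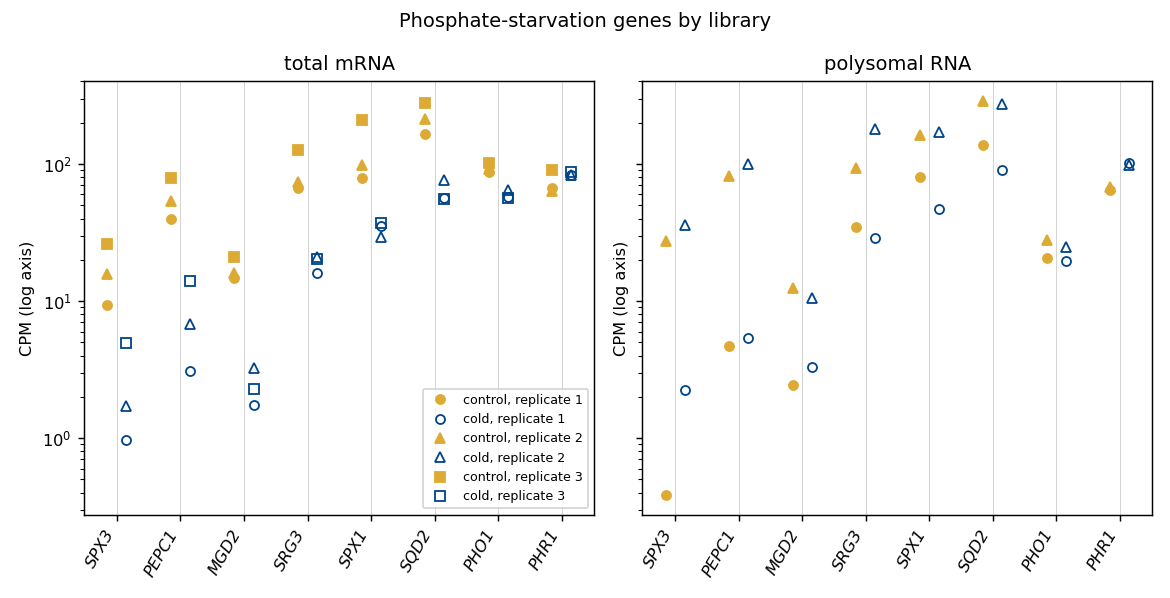
CPM on a log axis of 8 phosphate-starvation genes, some picked after their values were seen, in each library of total mRNA (left) and polysomal RNA (right); gold filled, control; blue open, cold; shapes give replicates. In total mRNA the cold points lie below the controls for all but PHR1, whereas in polysomes replicates 1 and 2 lie apart for SPX3, PEPC1 and SRG3 in both conditions.

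The letters GNATATNC, where N is any base, describe the element that PHR1 is known to bind (P1BS). They were found on either strand in 9 of 31 windows of the phosphate list (29%) and in 6.60% of the windows of all tested genes. Some other lists came close to it, with 8 of 32 windows for glycolysis and pyruvate metabolism (25%), 3 of 15 for polyamine synthesis (20%) and 6 of 33 for autophagy (18.2%), while glucosinolate genes had 3 of 36 (8.33%). The windows of the regulator SPX3, of SRG3 and of the lipid gene MGD2 are given to show the matches, in capitals, which begin 213 and 90 bases before the annotated start in SPX3, 127 and 63 in SRG3 and 14 in MGD2. The windows lie at chr2:18606110-18606409 (plus strand, SPX3), chr3:350011-350310 (minus strand, SRG3) and chr5:6896163-6896462 (plus strand, MGD2).
SPX3: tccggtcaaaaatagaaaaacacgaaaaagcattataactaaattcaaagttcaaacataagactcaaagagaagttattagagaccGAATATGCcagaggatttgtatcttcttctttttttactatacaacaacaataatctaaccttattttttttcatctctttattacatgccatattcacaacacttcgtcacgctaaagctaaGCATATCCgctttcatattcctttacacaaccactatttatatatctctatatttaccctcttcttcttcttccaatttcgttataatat
SRG3: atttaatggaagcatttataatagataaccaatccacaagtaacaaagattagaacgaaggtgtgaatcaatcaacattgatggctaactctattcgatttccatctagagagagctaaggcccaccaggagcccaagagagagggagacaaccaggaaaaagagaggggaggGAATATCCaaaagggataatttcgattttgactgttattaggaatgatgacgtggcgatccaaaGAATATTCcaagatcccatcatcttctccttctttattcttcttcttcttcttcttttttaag
MGD2: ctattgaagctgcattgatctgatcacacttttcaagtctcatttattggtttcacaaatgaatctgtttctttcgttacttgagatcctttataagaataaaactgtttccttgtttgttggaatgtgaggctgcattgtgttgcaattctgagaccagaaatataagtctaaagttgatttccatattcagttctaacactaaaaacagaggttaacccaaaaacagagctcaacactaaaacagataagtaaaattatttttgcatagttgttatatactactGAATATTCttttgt

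Several hormone and growth lists had falls and no rises. Others held both: of 41 tested auxin genes 4 rose (9.76%) and 5 fell (12.2%), near the shares of all genes. Of 20 tested ethylene genes 1 rose and 4 fell, and of 23 brassinosteroid genes 1 rose and 5 fell. Without cold replicate 3 these counts were 4 and 9 for auxin, 2 and 6 for ethylene and 1 and 6 for brassinosteroid. Jasmonate is a lipid-derived hormone of defence; of 32 genes for its synthesis, repression and response 29 were tested, 0 rose and 9 fell (31%), with a median log2 change of −0.72. With cold replicate 3 left out, 8 fell with a median of −0.84; without cold replicate 2, 5 fell, and without control replicate 3, 1 rose. The synthesis gene LOX3, a lipoxygenase, had 3.99, 2.49 and 2.27 CPM in the cold and 9.53, 12.3 and 17.5 CPM in the controls (log2 change −2.11, SE 0.32). AOS, the next enzyme, had 27.6, 20.1 and 25.7 CPM against 66.1, 87.7 and 52.1 CPM (−1.49). MYC2, the main transcription factor of the response, had 13.7, 12.1 and 9.07 CPM against 32.7, 64.3 and 35.8 CPM (log2 change −1.89; −1.78 without cold replicate 3). In all 3 genes every cold library was below every control.

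For cytokinin, a hormone of cell division, 32 of 37 genes were tested, 0 rose and 6 fell (18.8%), with a median of −0.35 and 26 of 32 below 0. In the fit that omits cold replicate 3, 5 fell; without cold replicate 2, control replicate 1 or control replicate 2, 3 fell, and without control replicate 3, 1 rose. CKX6, which breaks cytokinin down, changed by −1.61, the response regulator RR3, a fast target of the pathway, by −1.4, and RR10, a regulator that acts as a transcription factor, by −1.22. RR10 had 11.8, 10.2 and 11.3 CPM in the cold and 23.1, 27.2 and 27.3 CPM in the controls, with no overlap. In polysomes 16 of 30 cytokinin genes were below the controls in both cold libraries and 4 above, against 30.9% and 30.8% of all genes.

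SAUR proteins promote cell expansion and many respond to auxin. Of 78 genes 48 were tested, 0 rose and 12 fell (25%), with 40 of 48 below 0 and a median log2 change of −0.76; without cold replicate 3, 12 of 52 fell, 9 of them in both fits. The falls were 5 without cold replicate 2 and 7 when control replicate 2 was omitted, and 2 rose without cold replicate 1 and 1 without cold replicate 2. SAUR29 had 1.65, 1.92 and 2.27 CPM in the cold and 8.98, 5.52 and 5.34 CPM in the controls (−1.8), and AT5G18030 had 2.53, 1.06 and 2.64 CPM against 6.43, 9.03 and 7.54 CPM (−1.97). No cold library of either gene reached a control. Expansins loosen cell walls; of 34, 22 were tested, 0 rose and 6 fell (27.3%), also 6 without cold replicate 3 with 5 of them shared, and a median of −0.58. EXPB3 fell from 50.9, 85 and 108 to 31.7, 20.4 and 22.7 CPM (log2 change −1.7, SE 0.29) and EXPA4 from 59.6, 82.2 and 87.7 to 35.7, 25.3 and 34.8 CPM (−1.27), with no overlap in either. In EXPB1 the log2 change was −2.29 and the call was lost without cold replicate 1.

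Cysteine-rich receptor-like kinases (CRKs) are membrane kinases linked to immunity; of 41, 24 were tested, 0 rose and 6 fell (25%). Without cold replicate 3, 30 were tested and 6 fell, and the median moved from −0.52 to −0.85. CRK10 had 6.03, 6.33 and 9.07 CPM in the cold and 22.9, 22.4 and 29.1 CPM in the controls (log2 change −1.86, SE 0.21). CRK42 had 5.93, 4.89 and 4.16 CPM against 41.9, 22.3 and 13.1 CPM (−2.32), and no cold library of either gene reached a control. In 2 larger groups linked in part to immunity the picture differed. Of 150 tested leucine-rich repeat receptor kinases 12 rose (8.0%) and 10 fell (6.67%), or 10 and 12 without cold replicate 3 and 6 and 13 with library totals. Of 48 tested WRKY factors 3 rose and 7 fell (14.6%) with a median log2 change of 0.22, or 3 and 9 without cold replicate 3 and 0 and 9 with library totals. Leaving out another single library left 5 to 17 rises and 2 to 10 falls of the kinases, and 1 to 6 rises and 2 to 6 falls of the WRKY factors. CRK36 changed by −2.96 at low levels.

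Among 54 tested ERF, zinc finger, WRKY and other stress transcription factors 7 rose (13.0%) and 13 fell (24.1%), with a median of −0.60; without cold replicate 3, 5 rose and 15 fell. The rises were 4 without cold replicate 2, and the falls were 8 without cold replicate 1 or control replicate 2. RAP2.9 had 13.1, 14.7 and 17.8 CPM in the cold and 1.22, 1.32 and 1.87 CPM in the controls (log2 change 3.33, SE 0.26; 3.22 without cold replicate 3). RAV1, a growth regulator, had 101, 142 and 128 CPM against 35.2, 30.1 and 42.2 CPM (1.78), and RAP2.2, known from the response to low oxygen, rose by 1.54. These 3 were higher in every cold library. WRKY46 fell from 4.54, 7.37 and 7.88 to 1.07, 0.672 and 1.13 CPM (log2 change −2.84) and WRKY40, a pathogen-induced factor, from 7.87, 14.5 and 7.97 to 0.681, 3.17 and 0.756 CPM (−2.55). AT5G51190, of the ERF family, changed by −2.35.

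Small heat shock proteins bind unfolded proteins. Of 39 genes of the family, 26 were tested, 1 rose and 7 fell (26.9%), with a median of −0.58. Without cold replicate 3, 27 were tested and the counts were again 1 and 7, with 6 of the falls shared. The falls were 3 without cold replicate 1 and 4 when control replicate 2 was omitted, which also left 0 rises. AT2G19310 had 4.28, 11.3 and 10.2 CPM in the cold and 35, 34.1 and 30.7 CPM in the controls, with no overlap (log2 change −1.99, SE 0.32). AT1G07400 changed by −1.88 and was not called without cold replicate 1. The rise, AT4G02450 at 0.61, was not called without control replicate 2 or with library totals. It was matched by product name alone, and whether it is itself a small heat shock protein was not checked.

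In some lists the share of calls was below that of all genes. Among 33 autophagy genes 1 rose and 1 fell, with and without cold replicate 3, and the median log2 change was −0.13. The rise was NBR1, an autophagy receptor, from 149.9, 127 and 134 to 191, 235 and 256 CPM (0.73), and the fall AT3G61960, from 23.3, 27.5 and 35.8 to 14.5, 15.9 and 18.5 CPM (−0.84). Both calls were lost without control replicate 2, and that of AT3G61960 also without cold replicate 1 or cold replicate 2; 2 genes rose without cold replicate 1 or control replicate 1, and 2 fell with library totals. In polysomes 20 of the 33 were below both controls in both cold libraries and 1 above, against 30.9% and 30.8% of all genes. For fatty acid synthesis 1 of 19 tested genes rose and 0 fell, again with and without cold replicate 3, and 1 fell without control replicate 3 or with library totals. The rise was ACP4, an acyl carrier protein of leaves, at 461, 425 and 519 CPM in the cold and 300.3, 301 and 234 CPM in the controls (0.75). A p above the threshold does not show that the other genes were unchanged.

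Some of the largest changes among abundant nuclear genes lay outside these lists. PDF2.1, of the plant defensin family of small secreted peptides, had 121, 99 and 131 CPM in the cold and 2.33, 1.67 and 1.78 CPM in the controls, a log2 change of 5.92 (SE 0.21, adjusted p = 4.02e-06; 5.84 without cold replicate 3). LCR69, of the same family and close to it on chromosome 2, had 557, 739 and 493 CPM against 44, 38.2 and 40.4 CPM (log2 change 3.87). Neither overlapped between groups. XTH20, which cuts and rejoins xyloglucan of the cell wall, rose by 4.03, from 3.66, 3.6 and 4.49 to 82.3, 70.9 and 37.8 CPM.

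WCRKC1, a thioredoxin of plastids, had 28, 38.3 and 38.5 CPM in the cold and 0.554, 1.58 and 0.593 CPM in the controls (log2 change 5.21, SE 0.35; 5.15 without cold replicate 3). In polysomes it had 52.6 and 53.4 CPM in the cold and 105 and 52.5 CPM in the control, so the order of total mRNA was absent there. The control libraries alone lay far apart between total mRNA and polysomes, and the cause was not tested. AT4G26670, of the Tim17/Tim22 family of membrane transport proteins, had 66.4, 59.2 and 68.4 CPM against 4.54, 5.17 and 3.73 CPM in total mRNA (3.85) and 65.3 and 54.3 against 49.5 and 20.01 CPM in polysomes. Both cold polysome libraries were thus above both controls, by less than in total mRNA. AT2G21130, a cyclophilin, had 57.3, 62.1 and 62.7 CPM against 3.66, 3.24 and 4.15 CPM (4.03). Over all rises with at least 1 CPM in polysomes, 1888 of 2534 had both cold polysome libraries above both controls, against 30.8% of all genes. Of 2217 such falls 1601 had both below, against 30.9% of all genes.

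Among falls under the same limits, MIPS2, which makes myo-inositol phosphate, went from 150.1, 148 and 222 to 12.4, 28.6 and 35.9 CPM (log2 change −2.79, SE 0.39; −3.08 without cold replicate 3). APR1, an enzyme of sulfate reduction, had 33.2, 27.6 and 38.5 CPM in the cold and 206, 149 and 230.2 CPM in the controls (−2.57). GH9B13, a cellulase family member, had 8.46, 8.06 and 4.91 CPM against 50.1, 54 and 52 CPM (−2.79). PIP2A, an aquaporin of the plasma membrane, had 232, 268 and 299 CPM against 1774, 1664 and 899 CPM (−2.44), with control replicate 3 the lowest control. None of the 4 overlapped between groups, which was a condition for naming them.

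**Figure D5:**
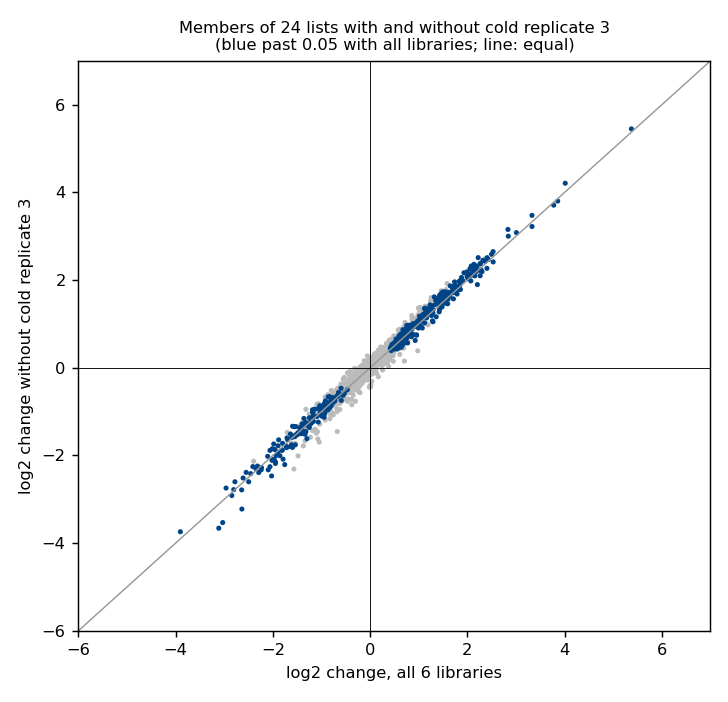
Log2 change without cold replicate 3 (y axis) against the change with all 6 libraries (x axis) for 1025 members of 24 lists, blue where the gene passed with all libraries; the grey line marks equal values. Of 400 genes that passed, 363 also passed without that library and 0 turned sign.

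The dependence on cold replicate 3 was small for the members as a set. Among 1025 members of the 24 lists plotted, 400 passed with all 6 libraries, and 363 of these passed without cold replicate 3. The median shift of their log2 change was 0.09 and the largest 0.59. The fits share 5 of 6 libraries, so this is a description of that library's weight and not a second measurement.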

How the data were processed

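The mRNA and polysome files hold counts of reads per gene, made by the authors with STAR and HTSeq on TAIR10 per the submitters' processing notes, without versions. The strand setting is not given in the sources used here; overlapping and antisense genes cannot be told apart. Lines that name no gene were left out. Genes held 6.6% to 31.2% of the whole tally in the mRNA libraries. Whether a read that matched several places was tallied once is not given. The deposited peak lists were not used.

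Groups were compared with edgeR 4.0.16 in R 4.3.3 (quasi-likelihood F test, robust, TMM factors, filterByExpr), adjusted by Benjamini-Hochberg over all genes tested, with a threshold of 0.05; SE is the log2 change divided by the square root of F. CPM uses TMM factors over the 6 mRNA libraries, and over the 4 polysome libraries for polysomal RNA, whose log2 ratios add 0.5 CPM. The fit was tested on simulated counts, where the share of false calls was above the nominal threshold, more so when spread was drawn per gene than from the trend; calls near the threshold are the least certain. Alternatives were DESeq2 1.42.0, limma 3.58.1 (voom with quality weights), library totals, no filter on low counts, no organelle genes, a replicate block, and leaving out each library.

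Members and lists were chosen with earlier results of these data known. Families come from product names in the RefSeq annotation of TAIR10.1, matched by locus, and the patterns for PPR, AP2/ERF and histone genes were corrected after a first count. Members whose product name does not match were not counted, so the counts may not cover whole families. Genes named without remark are, per list or family, up to 3 largest rises and 3 largest falls that passed with and without cold replicate 3 with no overlap between groups, or the 2 of lowest p, and the 25 largest rises and falls among nuclear genes whose mean log2 CPM was 4 or more, outside the COR and clock genes. Motifs were searched on both strands. Described in the text are GNATATNC, the P1BS element, which reads the same on both strands, and TGGGCC, a site II element. Also searched were the other site II form, spelled TGGGCT, the telobox AAACCCTA, the core of the cold-response CRT element, spelled CCGAC, the evening element AAAATATCT, the G-box of light-regulated promoters, spelled CACGTG, the W-box bound by WRKY factors, spelled TTGACC, the calmodulin-linked element spelled CGCGTT, and the heat shock element core GAANNTTC.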

Additional observations from a re-analysis of the deposited data

How the results depend on the processing

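With voom and quality weights 3892 genes rose and 3575 fell, and with library totals 1363 rose. Leaving out 1 library gave 1424 to 2626 genes higher in cold, total mRNA, and 1148 to 2218 genes lower in cold, total mRNA. DESeq2, no filter on low counts and removal of organelle genes kept both counts within 1.5 times. The main fit did not pair samples by replicate number. Between cold and control libraries of the same number, deviations from the group means had correlations of −0.02, 0.005 and 0.22. Whether the samples were paired is not settled by these values. With a replicate block 2247 rose and 2129 fell. The 139 genes named by the rule, which in most cases requires a call without cold replicate 3, kept their direction in every alternative, and 118 kept their call in all; the most calls lost were 11, without control replicate 2. Genes named outside the rule are not in this tally; of these BBX32 lost its call without cold replicate 3. Of 69 counts of list members, 28 moved by over 1.5 times with voom, 22 with library totals, 8 with the replicate block, 35 without control replicate 2, 34 and 31 without cold replicates 1 and 2, and 8 without cold replicate 3. The causes were not tested. With 3 libraries a group and 3282574 gene reads in cold replicate 3, genes of few reads are the least certain.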

Other observations

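Of 248 cytochrome P450 genes, enzymes of secondary metabolism and hormones, 155 were tested, 9 rose and 45 fell (29%), with a median log2 change of −0.37. Without cold replicate 3, 9 rose and 42 fell, with library totals 5 rose, and the falls numbered 27 and 28 when cold replicate 1 or 2 was omitted and 25 when control replicate 2 was. TT7, the flavonoid 3'-hydroxylase, rose from 15.7, 15.5 and 12.7 to 144, 67.8 and 164 CPM (log2 change 3.09), and CYP71B24 fell by 2.9 on the log2 scale but was not called without cold replicate 2. Of 101 GDSL lipase genes 49 were tested, 5 rose and 19 fell (38.8%), or 6 and 17 without cold replicate 3; the falls were 12, 10 and 11 without cold replicate 1, cold replicate 2 and control replicate 2. Of 36 tested nodulin MtN21-like transporters, a family that holds amino acid exporters, 2 rose and 8 fell (22.2%), or 3 and 8 without cold replicate 3, and 1 rose without any other single library or with library totals; their median log2 change was −0.11, with 14 of 36 above 0. Of 53 tested ABC transporters, pumps driven by ATP, 11 rose (20.8%) and 5 fell, or 9 and 4 without cold replicate 3, 5 and 6 with library totals, and 5 to 9 rises with 2 to 5 falls when another library was left out. Among the MtN21-like transporters, UMAMIT36 had 0.681, 0.863 and 2.27 CPM in the cold and 9.42, 11.3 and 17.4 CPM in the controls (−3.65). UMAMIT45, of the same family, had 5.64, 5.28 and 5.29 CPM against 16, 19.5 and 18.2 CPM (−1.72). Neither of these genes overlapped between groups. WD40 repeat proteins had 32 rises (20.1%) and 10 falls among 159 tested and 38 and 6 without cold replicate 3. Their rises were 17, 14 and 15 and their falls 3, 2 and 2 without cold replicate 1, cold replicate 2 and control replicate 2, and with library totals 14 rose and 13 fell.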
